A study of Mus musculus with 12 samples.

Results

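The 7 transcription factors Sox10, Egr2, Pou3f1, Foxd3, Tfap2a, Tfap2b and Zeb2, chosen by name as regulators of the Schwann cell lineage, were read from a table of 24489 genes in single cells of the developing mouse cochlea. Each cell was sorted into a well for its tdTomato fluorescence, lysed, and sequenced over the whole length of its polyA transcripts by the Smart-seq2 protocol. The samples were 12 plates of 384 wells: 2 at E14.5, 2 at E15.5, 3 at E16.5, 1 at E17.5, 2 at E18.5 and 2 at P3, each from the pooled cochleae of several mice. All plates were labelled PVcre;Ai14, in which Cre from the parvalbumin locus switches on the tdTomato reporter, except E14.5 replicate 2, which was labelled TrkCcre, a Cre at the neurotrophin receptor gene Ntrk3. The study's methods name the Ntrk3 driver for all E14.5 embryos, so that at E14.5 the driver and the stage cannot be told apart.

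Schwann cells and the satellite glia of the spiral ganglion come from the neural crest. Sox10, an HMG-box factor, is needed to form the lineage and stays on throughout it. Together with the POU factor Pou3f1, also known as Oct6, Sox10 switches on Egr2, also known as Krox20, the zinc-finger activator of the myelin genes, and the repressor Zeb2 silences genes that hold Schwann cells back. The forkhead factor Foxd3 and the AP-2 factors Tfap2a and Tfap2b act earlier, in the neural crest and in Schwann cell precursors.

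Cells were grouped from their expression with the 7 factors kept out of the clustering, so that the groups were not built on the genes described here. Of 4226 cells that passed the filters, 1187 were glia-like, 2226 were like spiral ganglion neurons (SGNs), 516 were like otic mesenchyme (OM), 86 were like hair cells (HCs) and 211 stayed unnamed. The names of 6 plates, spanning E14.5 to E17.5, begin with SS2_20, and these are called the SS2_20 series here. The labels do not say what this prefix stands for. These 6 plates held 1140 of the glia-like cells, 100 to 242 in each plate, and all class comparisons rest on them. In the other plates the glia-like wells were few, 17 and 9 at E16.5 and 13 and 8 at E18.5, and 75.0% to 100% of them carried neuron or mesenchyme markers as well, against 4.50% to 7.76% of the glia-like wells of the SS2_20 plates. At P3 only SGN-like cells were found. The SS2_20 plates held 80997594 to 99072681 counts each, with median depths of 228261 to 284212 counts in their glia-like cells.

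The 8 markers that named the glia, among them Ednrb, summed to 10188 to 19194 normalised read counts (CPM, counts scaled to a library of 1e6) in the glia-like sums, to 32.3 to 175 CPM in the SGN-like sums and to 38.8 to 468 CPM in the OM-like sums. The 8 neuron markers summed to 149 to 280.3 CPM and the 8 mesenchyme markers to 5.95 to 23.2 CPM in the glia-like sums. Melanocytes, which share a neural crest origin and Sox10 with glia, were looked for by Dct, Pmel, Tyrp1, Mlana and Tyr, which summed to 2.25 to 392 CPM in the glia-like sums. Leaving out the glia-like wells with more than 100 CPM of these genes, 2 to 13 in a plate, changed no call of the 7 factors.

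In GRCm38 coordinates, Sox10 lies on the minus strand of chr15:79154908-79165240 and Egr2 on the plus strand of chr10:67535475-67542188. The others are Pou3f1 (chr4:124656807-124660655, plus), Foxd3 (chr4:99656299-99658622, plus, a single exon), Tfap2a (chr13:40715302-40738376, minus), Tfap2b (chr1:19208914-19238576, plus) and Zeb2 (chr2:44983632-45117395, minus). Promoter windows of 300 bases were taken from RefSeq (GRCm38.p6) for the factors that its table holds, 5 for Egr2, 4 for Zeb2, 2 for Tfap2a and 1 each for Foxd3 and Tfap2b. One window is shown for each of 3 factors that behaved differently across the classes: Egr2, found in glia and mesenchyme, Foxd3, nearly absent outside glia, and Zeb2, found in all 3 classes. Capitals mark matches on either strand to the letters TGGGCG (an EGR core), TGCAAAT (a POU octamer part) and GCCNNNGGC (an AP-2 core), or to the CArG box bound by serum response factor.

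Egr2 window on the plus strand at chr10:67537619-67537918: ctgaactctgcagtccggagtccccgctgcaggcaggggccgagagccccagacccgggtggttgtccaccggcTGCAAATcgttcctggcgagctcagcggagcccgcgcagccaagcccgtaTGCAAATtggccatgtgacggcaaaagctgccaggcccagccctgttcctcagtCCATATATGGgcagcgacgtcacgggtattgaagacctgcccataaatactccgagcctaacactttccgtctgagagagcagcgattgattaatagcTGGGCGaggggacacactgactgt
Foxd3 window on the plus strand at chr4:99656049-99656348: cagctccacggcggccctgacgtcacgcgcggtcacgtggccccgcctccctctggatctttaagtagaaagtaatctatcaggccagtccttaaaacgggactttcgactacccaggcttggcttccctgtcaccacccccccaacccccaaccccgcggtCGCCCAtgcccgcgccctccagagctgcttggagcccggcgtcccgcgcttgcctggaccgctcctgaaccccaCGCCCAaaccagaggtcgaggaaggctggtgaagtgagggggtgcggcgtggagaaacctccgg
Zeb2 window on the minus strand at chr2:45113230-45113529: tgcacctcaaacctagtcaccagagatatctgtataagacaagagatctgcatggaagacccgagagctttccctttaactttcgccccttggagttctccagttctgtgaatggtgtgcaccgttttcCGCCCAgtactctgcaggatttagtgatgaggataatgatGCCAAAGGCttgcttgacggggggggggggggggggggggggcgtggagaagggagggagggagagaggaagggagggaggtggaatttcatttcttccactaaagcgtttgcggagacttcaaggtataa

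The Egr2 window held 2 POU matches, 1 CArG box and 1 EGR match, the Foxd3 window 2 EGR matches, and the Zeb2 window 1 EGR and 1 AP-2 match. Of 32851 promoter windows of the same length, 6082 held an EGR match, 1321 (4.02%) a POU match, 5450 (16.6%) an AP-2 match and 535 (1.63%) a CArG box. None of the 3 windows shown held the SOX letters ACAAAG (18.7% of all windows), the ZEB letters CACCTG (20.2%) or the forkhead letters TAAACA (13.4%). Another of the 4 Zeb2 windows, which starts at base 45110228 of chromosome 2, held 1 SOX match 62 bases before its start site. The Zeb2 window that starts at base 45117393 held no match. The Egr2 window that starts at base 67535249 of chromosome 10 held 1 EGR and 1 AP-2 match, with no POU match or CArG box. For Egr2 and Zeb2 the window shown was among those with most matches, so its matches are not read against the shares of all windows.

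In the SS2_20 plates Sox10 was the most abundant of the 7 in glia. Its summed level, scaled by TMM like all plate levels of single factors and listed genes below, in the glia-like cells was 673 and 684 CPM in the E14.5 plates, 770.1 and 729 CPM at E15.5, 698 CPM at E16.5 and 641 CPM at E17.5, a mean of 699 ± 45.2 CPM (SD, n = 6 plates). The SGN-like sums of the same plates lay between 0.980 and 9.97 CPM and the OM-like sums between 0.426 and 13.9 CPM. The glial plates stayed close together and far above every SGN-like and OM-like sum. In the few glia-like wells of the other plates it was lower, at 149 and 139.1 CPM at E16.5, where Zeb2 was at 243 and 189 CPM, and at 328 and 367 CPM at E18.5, where Egr2 was at 944 and 692 CPM. Per kilobase of exon, Sox10 in the glia of the SS2_20 plates stood at 229 ± 14.8 CPM, followed by Egr2 at 56.1 ± 10.4, Foxd3 at 50.6 ± 8.34, Zeb2 at 24.1 ± 5.26, Tfap2a at 6.53 ± 7.79, Pou3f1 at 0.577 ± 0.350 and Tfap2b at 0.0576 ± 0.0460 (SD, n = 6 plates). In that order Egr2 and Foxd3 did not differ beyond their spread over plates. The length used was the union of all annotated exons, 19942 bases for Zeb2 against 3398 for Egr2 and 2324 for Foxd3. The place of Zeb2 depends on that length, and the length of a single transcript was not tried.

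**Figure D1:**
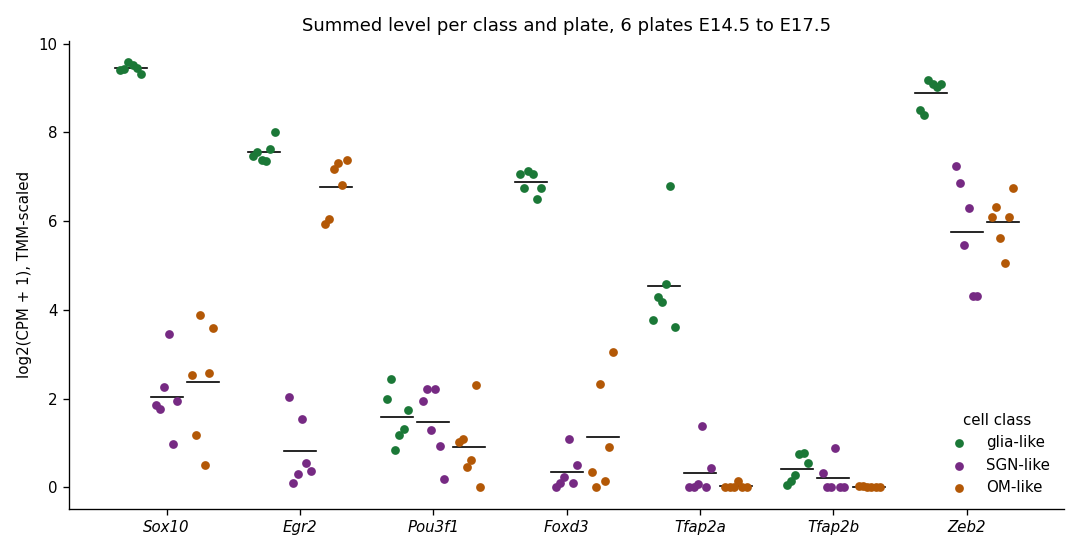
Summed level of each factor per cell class and plate for the 6 SS2_20 plates (E14.5 to E17.5), as log2(CPM + 1) on the y axis, with 1 point per plate in stage order and black lines at the mean of the 6 points. The glia-like points of Sox10, Foxd3, Tfap2a and Zeb2 all lie above the SGN-like and OM-like points, the Egr2 points of glia and OM overlap, and Pou3f1 and Tfap2b are low in every class.

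Egr2 was carried by both glia and mesenchyme. Its glial level was 176 and 186 CPM at E14.5, 165 and 163 CPM at E15.5, 195 CPM at E16.5 and 258 CPM at E17.5. In the OM-like sums it was 60.1 and 64.7 CPM at E14.5, 142 and 158 CPM at E15.5, 112 CPM at E16.5 and 165 CPM at E17.5. Within each plate glia were above OM, in 6 of 6, while across plates the highest OM sum (E17.5) lay above 1 glial sum (E15.5 replicate 2). The SGN-like sums held only 0.0669 to 3.09 CPM.

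Pou3f1, the factor that with Sox10 opens Egr2 expression in nerve, was almost absent. It reached 3.00 and 4.45 CPM in the glia of the E14.5 plates, 0.782 and 1.26 CPM at E15.5, 1.50 CPM at E16.5 and 2.33 CPM at E17.5. The SGN-like sums (0.142 to 3.64 CPM) and the OM-like sums (0 to 3.95 CPM) covered the same range. In all, 552 counts of Pou3f1 stood among 268544560 counts of glia. Its close relative Pou3f2, also known as Brn2, which can stand in for Pou3f1 in Schwann cells, was at 12.2 and 25.9 CPM in glia at E14.5, 45.5 and 27.9 CPM at E15.5, 25.3 CPM at E16.5 and 82.5 CPM at E17.5, above Pou3f1 in all 6 plates.

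Foxd3 was nearly confined to glia. Glia held 132 and 107 CPM at E14.5, 138 and 132.6 CPM at E15.5, 89.9 CPM at E16.5 and 106 CPM at E17.5. The SGN-like sums held 0 to 1.11 CPM, or 33 counts in all. Their plate at 0 counts, E14.5 replicate 1, allows up to 0.172 CPM at a floor of 3 counts, which covers counting error only. The OM-like sums held 0 to 7.28 CPM, and all 87 counts of the highest of them, E17.5, came from 1 well.

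Tfap2a was found in a minority of glial cells and at a low level, with 1 exception. Glia held 12.6 and 18.46 CPM at E14.5, 17.2 and 23.0 CPM at E15.5, 110 CPM at E16.5 and 11.3 CPM at E17.5. In the E16.5 plate 1 well held 5228 of the 6297 counts, and without it that plate stood at 20.2 CPM before TMM scaling, among the others. That well held 17850 CPM of Tfap2a, 335 CPM of Sox10, 21278 CPM of the glia markers and no count of the neuron, mesenchyme or melanocyte markers. The next highest glia-like well held 99 counts, while 2 SGN-like wells of other plates, at E18.5 and E16.5, held 3283 and 3037 counts with no Sox10. The OM-like sums together held 1 count of Tfap2a, and the SGN-like sums 38, of which 32 were in E15.5 replicate 2.

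Tfap2b, the sister gene of Tfap2a, was at the edge of detection in every class. It had 120 counts in all glia, 0.0345 to 0.696 CPM per plate, 21 in SGN-like cells and 2 in OM-like cells. In the SGN-like cells 17 of the 21 counts came from 1 well of E15.5 replicate 2.

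Zeb2 was high in glia and present in the other classes. Glia held 360.4 and 334 CPM at E14.5, 576 and 548 CPM at E15.5, 521 CPM at E16.5 and 542 CPM at E17.5. The SGN-like sums went the other way with stage: 150 and 115 CPM at E14.5, 42.8 and 77.7 CPM at E15.5, 18.9 CPM at E16.5 and 18.8 CPM at E17.5. The OM-like sums lay between 32.2 and 106 CPM without such an order. These are the SS2_20 plates. The glia-like wells of the other plates held 243 and 189 CPM at E16.5 and 292 and 285 CPM at E18.5, below both E14.5 plates. The SGN-like cells of the other plates held 43.3 and 43.8 CPM at E16.5, 69.8 and 66.8 CPM at E18.5 and 39.0 and 30.9 CPM at P3. All of these lay above the 18.9 and 18.8 CPM of the SS2_20 plates at E16.5 and E17.5. Those SGN-like cells also held glia markers, as given below, and the part of this in their Zeb2 was not tested. The count table also lists Zeb2os, which overlaps exons of Zeb2 on the other strand. It had 2952 counts over all cells against 210349 for Zeb2, and reads of the pair cannot be told apart if strand was not used.

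Whether each factor differed between glia and the other classes was tested with edgeR's quasi-likelihood test on the summed counts per class and plate, with Benjamini-Hochberg adjustment over the 16844 genes tested. Of the 7 factors, 5 were called at an adjusted p under 0.05 between glia and SGN, all higher in glia, where 52.9% of all genes tested were called and 28.4% were called higher. Foxd3 was higher by 9.50 on the log2 scale (SE 0.94, adjusted p = 2.523e-06), Tfap2a by 8.38 (SE 1.19, adjusted p = 0.000212), Sox10 by 7.93 (SE 0.65, adjusted p = 4.218e-07), Egr2 by 7.92 (SE 0.55, adjusted p = 9.352e-08) and Zeb2 by 3.31 (SE 0.17, adjusted p = 9.625e-09). For these 5 factors every glial plate lay above every neuronal plate. The share of all genes with such a separation was not counted. Tfap2b (log2 difference 2.22, SE 1.41, adjusted p = 0.219) and Pou3f1 (0.42, SE 0.84, adjusted p = 0.735) were not called. Without the well that held most Tfap2a, that gene was still higher in glia, by 7.71 (SE 1.12, adjusted p = 0.000244). Folds of genes near 0 in neurons depend on how the fit treats few counts. The ratio of the summed CPM was 399 for Foxd3 (95% interval from counting alone, 284 to 579), 198 for Sox10 (180 to 219) and 207 for Egr2 (171 to 253).

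Against OM, 4 of the 7 were called, again all higher in glia, where 27.7% of all genes were called and 15.3% called higher. They were Tfap2a (log2 difference 11.35, SE 1.39, adjusted p = 0.0002273), Sox10 (7.03, SE 0.62, adjusted p = 3.745e-06), Foxd3 (6.87, SE 0.79, adjusted p = 3.356e-05) and Zeb2 (2.93, SE 0.17, adjusted p = 1.43e-07). Since the OM-like sums held a single Tfap2a count, its ratio has a counting interval from 859 to 188990. Egr2 differed by 0.83 (SE 0.38) with an adjusted p of 0.126 and was not called, with adjusted p values from 0.0543 to 0.281 over the alternatives. Pou3f1 (1.01, SE 0.86, adjusted p = 0.437) was called only without the E16.5 plate, with 4.06 (SE 0.93, adjusted p = 0.0121), and that plate held 76 of the 178 counts in OM. Tfap2b (5.10, SE 1.76, adjusted p = 0.0581) was called when the plate was taken as a replicate block, with 4.64 (SE 1.58, adjusted p = 0.0482). The 2 comparisons share their glial sums.

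**Figure D2:**
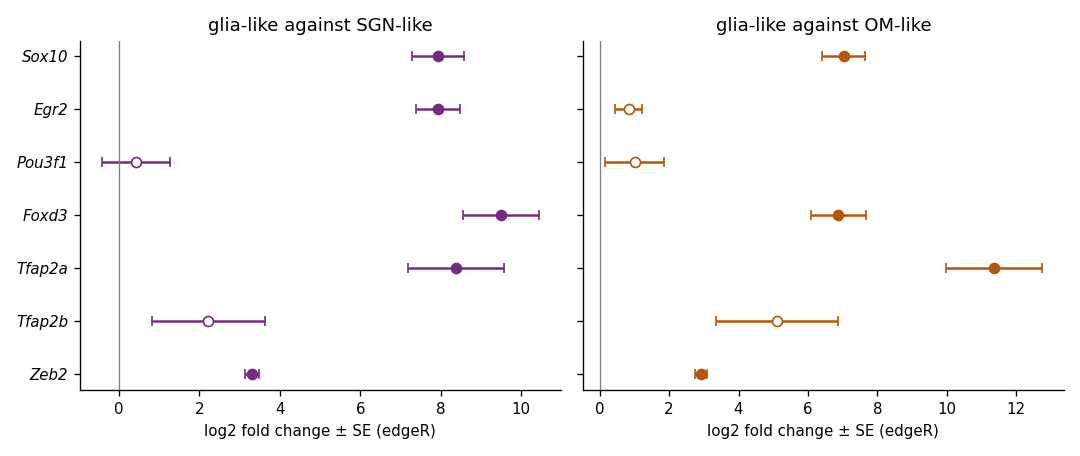
Log2 fold change of each factor in glia-like against SGN-like sums (left) and OM-like sums (right), with bars of 1 SE, over the 6 SS2_20 plates. Filled points have an adjusted p under 0.05: 5 of 7 on the left and 4 of 7 on the right, where Egr2 lies at 0.83.

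Within glia no factor was called by stage. Between E15.5 and E14.5, with 2 plates each, 0 of the 7 passed by edgeR and 1, Zeb2, had an unadjusted p under 0.05 (0.0272), while 10 genes or 0.0594% of those tested were called. DESeq2 on the same sums called 0 of the 6 factors to which it gave an adjusted p, all but Tfap2b, and 155 genes. Between E16.5 with E17.5 and E14.5, again 2 plates each, 0 of the 7 passed and only Zeb2 was under an unadjusted p of 0.05 (0.03), while 21 genes or 0.125% were called by edgeR and 356 by DESeq2, which again gave Tfap2b no adjusted p and called none of the other factors. Zeb2 differed by 0.69 (SE 0.28, adjusted p = 0.866) and 0.68 (SE 0.28, adjusted p = 0.5261) in these comparisons, and both E14.5 plates were below the 4 later SS2_20 plates. With the glia-like sums of all plates the second value was 0.08 (SE 0.43, adjusted p = 0.955). With the glial sums alone in the fit the Zeb2 values were 0.66 (SE 0.10, adjusted p = 0.269) and 0.64 (SE 0.10, adjusted p = 0.061). Sox10 differed by 0.14 (SE 0.81) and 0.04 (SE 0.81), and Egr2 by -0.14 (SE 0.65) and 0.39 (SE 0.65). These errors come from the fit of all 3 classes, and in a fit of the glial sums alone the SE was 0.09 for Sox10 and 0.16 for Egr2. Tfap2a at E16.5 and E17.5 differed by 2.0 (SE 1.36, adjusted p = 0.755), and by 0.01 (SE 1.29) without the well that held most of its counts. The Cre line of the E14.5 plates, described above, cannot be told apart from these stage differences.

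In the SS2_20 plates the stage difference of Zeb2 in glia was not that of neurons. Tested as an interaction, E16.5 and E17.5 against E14.5 in glia minus the same in SGN, Zeb2 gave 3.51 (SE 0.40, edgeR adjusted p = 0.00186) and was the only one of the 7 called, where 0.962% of genes were called. The mean level in glia was 347 CPM at E14.5 and 532 CPM at E16.5 and E17.5, against 132 and 18.9 CPM in SGN-like cells. Without E14.5 replicate 1 the value was 3.31 (SE 0.56) and the adjusted p 0.0599, so the call needs that plate, and without E14.5 replicate 2 the adjusted p was 0.0392.

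**Figure D3:**
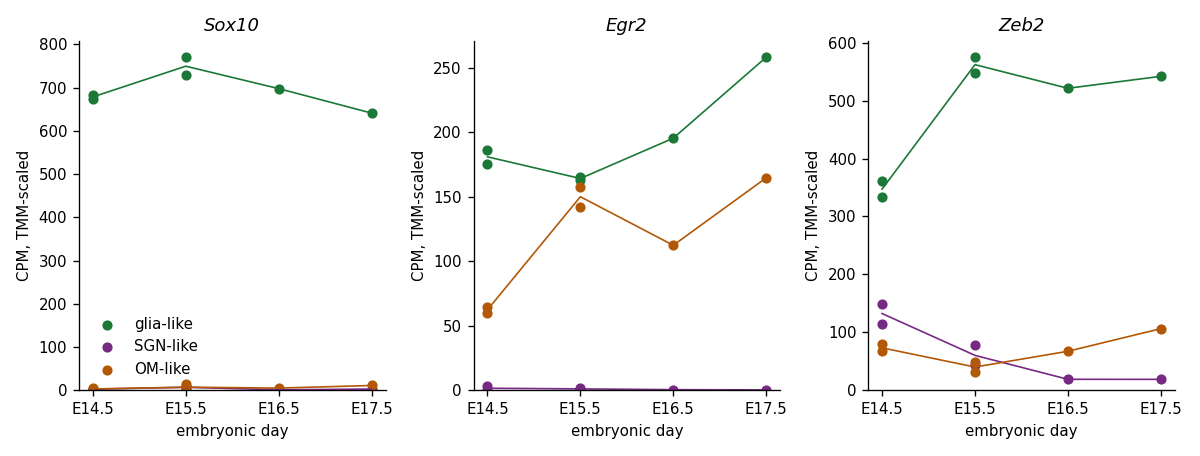
Summed level of Sox10, Egr2 and Zeb2 in CPM on the y axis by embryonic day in the 6 SS2_20 plates, 1 point per plate and class with lines through the mean at each day. Zeb2 is at 334 to 360.4 CPM in glia at E14.5 and 521 to 576 CPM later, while in SGN-like cells it goes from 115 to 150 CPM down to 18.8 CPM, and Egr2 in OM overlaps its range in glia.

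Co-expression was read in single cells thinned to 100000 counts each, which left 1063 glia-like cells of the SS2_20 plates. Averaged over the 6 plates, 98.5% of glia-like cells held at least 1 count of Sox10, 95.7% of Zeb2, 88.7% of Foxd3, 58.9% of Egr2, 34.1% of Tfap2a, 3.74% of Pou3f1 and 0.631% of Tfap2b. The plates were close together for Sox10 (97.1% to 99.6%) and Zeb2 (93.9% to 97.1%) and wider for Egr2 (50.7% to 67.6%) and Tfap2a (29.0% to 42.4%). In SGN-like cells the same shares were 44.8% for Zeb2, 7.39% for Pou3f1, 6.30% for Sox10, 2.06% for Egr2 and 1.61% for Foxd3. In OM-like cells they were 48.3% for Zeb2, 36.7% for Egr2 and 6.49% for Sox10. The share of SGN-like cells with Zeb2 ran from 65.2% in an E14.5 plate to 28.4% in the lowest plate.

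Sox10, Foxd3 and Zeb2 were found together in 902 of the 1063 glia-like cells (84.9%), in 2 of 423 SGN-like cells and in 5 of 479 OM-like cells. Adding Egr2 left 537 glia-like cells (50.5%). Taken singly, Sox10 was in 1046, Zeb2 in 1021, Foxd3 in 944 and Egr2 in 622 of the 1063 glia-like cells. The product of these shares was not computed for Sox10, Foxd3 and Zeb2 together or with Egr2. Their joint counts are therefore not read as more than separate detection would give. A glia-like cell most often held 4 of the 7 factors (505 cells), followed by 3 (291 cells) and 5 (200 cells), while 3 cells held none and no cell held all 7. Sox10 and Egr2 shared 57.8% of cells where the product of their shares is 57.6%, Egr2 and Foxd3 52.7% against 52.0%, and Egr2 and Tfap2a 20.0% against 19.9%. Of the 37 cells with Pou3f1, 24 also held Egr2, which was in 622 of all 1063 cells. Tfap2a was in 7 of the 37, or 0.659% of all cells where the product of the shares of Pou3f1 and Tfap2a is 1.19%.

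**Figure D4:**
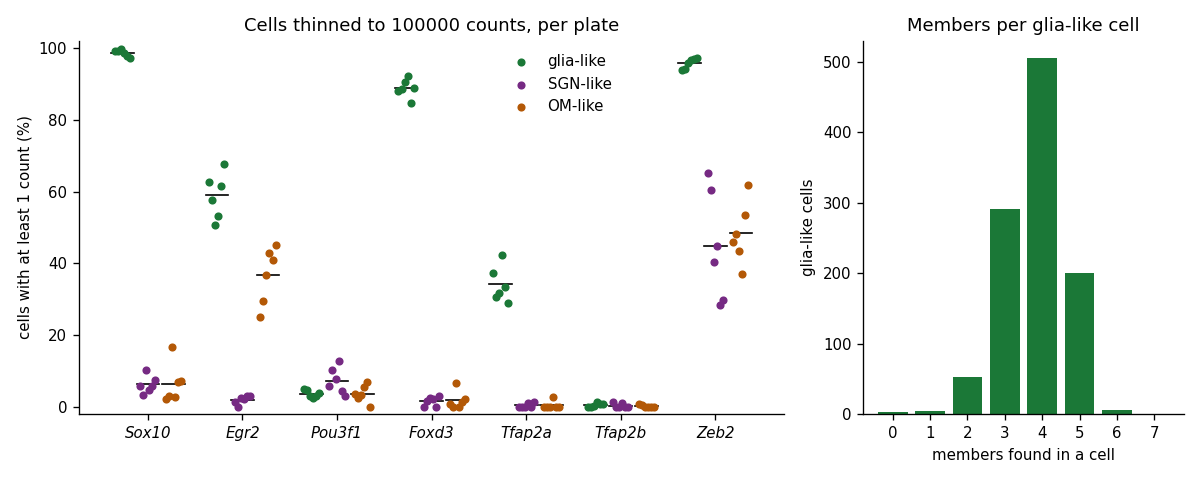
Left, percent of cells with at least 1 count of each factor after thinning to 100000 counts, 1 point per SS2_20 plate and class, with black lines at the mean of the 6 plates. Right, number of the 1063 glia-like cells that held 0 to 7 of the factors, with 505 cells at 4.

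Among the 1140 glia-like cells of the SS2_20 plates, levels on a plate-centred log2(CPM + 1) scale rose together only weakly. Pearson's r was 0.24 for Sox10 with Zeb2 (0.13 to 0.40 within single plates), 0.20 for Sox10 with Foxd3 (0.06 to 0.41) and 0.14 for Foxd3 with Zeb2 (0.08 to 0.35). Egr2 had r of 0.07 with Sox10, 0.08 with Foxd3 and 0.04 with Zeb2. These values are descriptions of cells that share plates and depth: Sox10 itself had r of 0.38 with the log2 count of the cell.

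The genes whose pattern over these cells was most like that of each factor were named by the highest r. For Sox10 they were Ednrb, the endothelin B receptor of crest-derived cells and a marker that named the glia (r = 0.44), the RNA helicase Ddx5 (0.39) and the imprinted gene Mest (0.34). Ednrb also led for Zeb2 (0.28), followed by the aryl hydrocarbon receptor Ahr (0.28) and by Sox10 (0.24). For Egr2 they were Fosb, an AP-1 subunit and immediate early gene (0.27), the collagen gene Col3a1 (0.26) and the kinase gene Aatk (0.26). For Foxd3 they were the homeobox gene Dlx2 (0.21), Hnrnph1 (0.21) and Hcfc1 (0.20). For Tfap2a, Slitrk6 gave 0.17 and Slc6a6 0.14. For Pou3f1 (Fam120c, Nrp2 and Nhej1, 0.10 to 0.11) and Tfap2b (Tasp1, Entpd2 and Abca8a, 0.12) the leading values were low, and these 2 factors were found in 3.95% and 1.14% of the cells before thinning. The 99th percentile of r over all genes was 0.22 for Sox10, 0.14 for Egr2 and 0.14 for Zeb2.

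Egr2 belongs to a family of immediate early genes, whose transcripts can rise during dissociation, and its relation to them is given beside its levels. In the same cells its r was 0.26 with Egr1, 0.24 with Nr4a1, 0.12 with Fos, 0.11 with Ier2 and 0.09 with Junb. Without TMM scaling, in the glia-like wells of the 2 E18.5 plates Egr2 was at 1009 and 733 CPM, Fos at 6914 and 5195 CPM and Egr1 at 3821 and 2795 CPM. In the SS2_20 glia Egr2 lay between 172 and 282 CPM on that scale, Fos between 948 and 1787 CPM and Egr1 between 393 and 703 CPM. In the OM-like sums of these plates Fos lay between 1327 and 4227 CPM and Egr1 between 1155 and 2630 CPM. Egr2 in OM was at 64.0 and 68.9 CPM at E14.5, with Fos at 1673 and 1423 CPM. At E15.5 Egr2 in OM was at 150 and 170 CPM, with Fos at 2987 and 4227 CPM. At E17.5 Egr2 in OM was at 175.5 CPM, with Fos at 1327 CPM. The E18.5 wells were 13 and 8 in number and mostly held neuron markers too, so stage, mixing and the levels of these early genes cannot be told apart there. The part of dissociation in the Egr2 level of glia or of OM was not tested.

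Egr2 also varied between the clusters of glia (CPM without TMM scaling). At E17.5 and E18.5 a cluster of 83 cells held 538 CPM of Egr2 with 1397 CPM of the myelin gene Mbp, where the larger cluster of 177 cells held 227 CPM of Egr2 and 285 CPM of Mbp. These stages were clustered together, and how the 21 mostly mixed glia-like wells of E18.5 fell between the 2 clusters is not given here. Fos was at 4559 and 835 CPM in these 2 clusters, and 8 cell cycle genes summed to 2251 and 731 CPM. At E14.5 the order was the other way, and the glial cluster with the higher cell cycle sum (2949.5 against 347 CPM) held the lower Egr2, 138.85 against 239 CPM, while Sox10 was at 712 and 747 CPM. The glial clusters of E15.5 and E16.5 are not described here. Taking cells with more than 100 CPM of 8 cell cycle genes as cycling, Egr2 was lower in cycling glia in 5 of 6 plates, by a mean log2 ratio of -0.21 ± 0.16 (SD, n = 6 plates; exact two-sided sign-flip permutation test, p = 0.0625, adjusted over the 7 factors 0.219). The smallest p that 6 plates allow in this test is 0.03125. Zeb2 was also lower in 5 of 6 plates (-0.17 ± 0.16, exact permutation p = 0.0625, adjusted 0.219), and Sox10 gave -0.01 ± 0.08. None of the 7 passed.

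Sox10 was also found in cells that were not glia-like. A cluster of 12 cells at E14.5 and one of 13 cells at E15.5, both led by genes of the otic epithelium, held 436 and 335 CPM of Sox10. Their Foxd3 was at 0.349 and 0 CPM and their Zeb2 at 0 and 0.601 CPM. HC-like cells in 2 SS2_20 sums held 30.8 and 143.7 CPM of Sox10 and 0 and 4.95 CPM of Foxd3. A cluster of 8 cells at E17.5 and E18.5, led by genes of central glia, held 197 CPM of Sox10 and 229 CPM of Egr2 with no Foxd3. Other unnamed clusters held both. A cluster of 30 cells of low depth at E15.5 held 516 CPM of Sox10, 217 CPM of Foxd3 and 566 CPM of Zeb2. Among the unnamed cells of E17.5 and E18.5, 2 clusters of 45 and 39 cells with markers of more than 1 class held 113 and 238 CPM of Sox10 and 38.9 and 89.9 CPM of Foxd3. None of these clusters carries a test.

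In the plates outside the SS2_20 series the SGN-like cells held counts of Sox10, Egr2 and the glia markers, whose source was not tested. Sox10 was at 15.7 and 16.0 CPM at E16.5, 66.8 and 72.2 CPM at E18.5 and 64.6 and 66.3 CPM at P3. Egr2 was at 17.46 and 15 CPM at E16.5, 261 and 266 CPM at E18.5 and 129 and 174 CPM at P3. The glia markers summed in those SGN-like cells to 850 to 1023 CPM at E16.5, 3155 and 3301 CPM at E18.5 and 1066 and 1055 CPM at P3, and 16.48% to 59.7% of these cells were mixed with markers of another class. To set the factors beside these markers, their counts were divided by those of the glia markers. Per 1000 glia marker counts, Sox10 had 19.6 and 20.1 counts in SGN-like and 22.4 and 24.7 counts in glia-like wells at E18.5. At E16.5 it had 14.1 and 17.3 counts in SGN-like and 14.8 and 18.2 counts in glia-like wells. The glia-like wells of both stages were mostly mixed, as given above. In the glia of the SS2_20 plates Sox10 had 36.4 to 71.4 counts. At P3, with no glia-like wells to compare, Sox10 had 45.1 and 47.5 counts in SGN-like cells. Foxd3 had 7.10 and 5.80 counts in SGN-like against 8.34 and 7.17 in glia-like wells at E18.5, and 3.89 and 5.77 against 5.46 and 3.70 at E16.5. Egr2 had 76.5 and 74.0 counts against 64.2 and 46.6 at E18.5, 15.73 and 16.2 against 22.7 and 13.7 at E16.5, and 90.3 and 125 in SGN-like cells at P3. Zeb2 had 20.5 and 18.6 counts in SGN-like against 19.9 and 19.2 in glia-like wells at E18.5. At E16.5 Zeb2 had 39.0 and 47.5 counts in SGN-like against 24.1 and 24.6 in glia-like wells. The widest gap of these was in the SGN-like cells of the E14.5 plates, where Zeb2 had 2221 and 2814 counts per 1000 glia marker counts against 38.2 and 32.6 in glia.

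**Figure D5:**
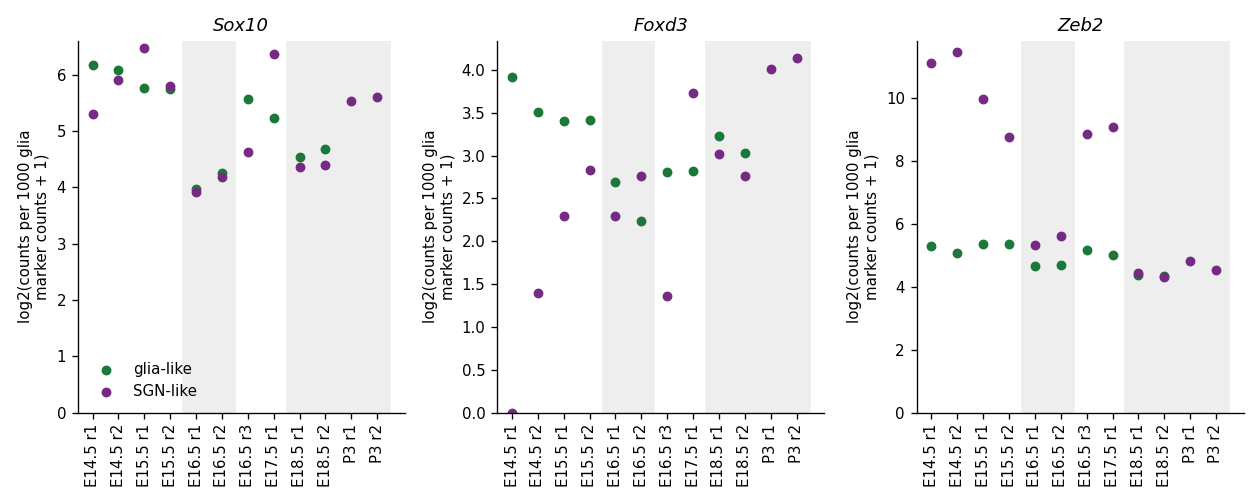
Counts of Sox10, Foxd3 and Zeb2 per 1000 counts of the summed glia markers, as log2(ratio + 1) on the y axis, in glia-like and SGN-like sums of each plate, with plates outside the SS2_20 series shaded. At E18.5 the Sox10 points of both classes lie between 19.6 and 24.7 per 1000, while Zeb2 in SGN-like cells at E14.5 is at 2221 and 2814 per 1000 against 32.6 and 38.2 in glia.

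The regulators that work beside these factors were compared through lists, described by their counts beside the share of all genes called (28.4% higher and 24.6% lower against SGN, 15.3% higher and 12.4% lower against OM). Of 13 tested promoters or partners of Schwann cell myelination, 8 were higher and 4 lower in glia than in SGN, with a median log2 difference of 1.47 (0.11 over all genes). Nab2, the corepressor that binds Egr2, was higher by 7.34 (SE 0.65) and the Hippo effector Tead1 by 4.44 (SE 0.38), while the chromatin genes Smarca4 (-0.92, SE 0.13) and Hdac2 (-0.61, SE 0.12) were lower. Against OM, 4 were higher and 1 lower, led by Pou3f2 (9.31, SE 0.93) and Srebf1, a regulator of lipid synthesis (0.48, SE 0.12), with Nfatc4, the calcineurin-regulated factor, lower (-2.32, SE 0.43).

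Of 10 regulators of the immature or repair state of Schwann cells, 6 were higher and 2 lower against SGN. Sox2, which holds Schwann cells immature, was higher by 8.99 (SE 0.75) and Egr3 by 8.82 (SE 0.50), and Id4 (-1.32, SE 0.23) and Id2 (-0.77, SE 0.12) were lower. Against OM 6 were higher and 2 lower, with Sox2 at 7.79 (SE 0.68), the Notch target Hes5 at 5.79 (SE 1.87) from levels of 0.142 to 1.24 CPM in glia and 0 to 0.201 CPM in OM, Egr1 at -1.37 (SE 0.18) and Hes1 at -0.85 (SE 0.25). Of 9 tested neural crest regulators, 5 were higher and 0 lower against SGN, led by Ets1 (8.05, SE 0.29) and Msx2 (7.67, SE 1.09). Against OM 2 were higher, Msx2 (6.79, SE 1.17) and Sox5 (1.94, SE 0.41), and 4 lower, led by the zinc-finger repressors Snai1 (-8.18, SE 0.62) and Snai2 (-2.87, SE 0.85).

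Of 19 myelin and Schwann genes known as targets of Sox10 or Egr2, 11 were higher and 1 lower against SGN, and 12 higher and 1 lower against OM. The myelin proteolipid gene Mal (10.38, SE 1.65) and the connexin gene Gjb1 (9.57, SE 1.55) led against SGN. Dhh, the hedgehog ligand of Schwann cells, stood at 9.0 (SE 1.07) against OM. Drp2, which links Schwann cells to their basal lamina, was the one lower, by -4.17 (SE 0.47) and -2.80 (SE 0.45). All 8 cell cycle genes were higher in glia than in SGN, led by Aurkb (8.61, SE 1.01) and Ccnb1 (8.17, SE 0.62), and 0 of 8 were called against OM. By stage within glia, none of the genes tested in these 5 lists was called. In the interaction with SGN the neural crest genes Ets1 (edgeR adjusted p = 0.0252) and Id3 (-1.85, SE 0.35, adjusted p = 0.0276) and the cell cycle gene Top2a (adjusted p = 0.0423) were called. Ets1 had 2 counts in each SGN-like sum at E14.5 and 68 and 18 counts at E16.5 and E17.5, with 136 to 197 CPM in glia, and Top2a lay between 0.327 and 14.1 CPM in the SGN-like sums, so their fitted values are not given.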

How the data were processed

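Smart-seq2 libraries of single tdTomato-positive cells were aligned by the authors with STAR in 2-pass mode to mm10 with ERCC spike-ins, and uniquely mapped reads were kept. Read counts per gene, made with featureCounts, were deposited with no molecular identifiers. The annotation and the use of strand are not given in the sources used here. Columns of 92 ERCC spike-ins were used only for filtering, and 1 plate of the table that belongs to no sample was not used. Wells were kept above 1000 detected genes and below a 5% share of spike-in counts (4226 of 4608 wells), and 0 kept wells held the same values as another.

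Stages were clustered separately with scanpy 1.11.5 (Leiden, resolution 1). The 7 factors and the genes that the study lists as glial contamination, which include 4 of the 7, took no part in it. Each cluster got its name from lists of 8 fixed markers per class. The thresholds of that naming, a mean relative marker level of at least 0.2, at least 3 detected markers and at least 2 times the next class, were set after the cluster tables were seen and before any test. No doublet caller was run. A well was called mixed when its summed markers of another class passed 0.1 times that class's median.

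Counts were summed per class and plate (at least 5 cells, 3 for hair cells), scaled by TMM and tested with edgeR 4.0.16 (glmQLFit, glmQLFTest, filterByExpr), with class-by-stage group means over 18 sums of the 6 SS2_20 plates, and with Benjamini-Hochberg adjustment over 16844 genes. Levels are CPM, counts scaled to a library of 1e6. Those of single genes per class and plate are scaled by TMM too, and sums of markers, values per cluster or cell and those of immediate early genes are not. The plates are the replicates. The labels do not tie a plate to separate animals beyond the 3 to 4 pooled per experiment, so p-values measure the spread between plates, which may be partly technical. Sums of different classes from 1 plate share their animals, and the plate as replicate block was an alternative. The correlation of their deviations from the group means was -0.068 to 0.053. Alternatives were DESeq2 1.42.0, RLE factors, other filters, other clusterings, left-out wells and left-out plates. The edgeR script was tested on simulated data. Read counts without molecular identifiers are not independent molecules, so counting intervals and floors (3 counts) cover counting error only.

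Named genes were the 7 factors, for each the 3 genes of highest r, and of each list the 2 genes highest and the 2 lowest among those called. Some genes that this rule or the marker lists name are not reported here. The members and lists were chosen with earlier results of these data known. Lists not named gene by gene above are described by their counts. Promoter windows came from RefSeq and coordinates from GENCODE.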

Additional observations from a re-analysis of the deposited data

Results flagged for a closer look

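With Dixon's ratio, 21 sets of 6 plates (7 factors in 3 classes) were tested for a value far from the other 5. Of these sets, 7 had one. The usual rate of about 1 in 20 holds for normally distributed values, and some of these sets lie near 0 CPM. The number flagged is therefore not read against that rate. All 7 were the highest plate of their set. In glia-like cells they were Egr2 at E17.5 (258.23 CPM, next 195 CPM) and Tfap2a at E16.5 replicate 3 (109.54 CPM, next 23.0 CPM), the plate in which 1 well held 5228 of 6297 counts. In SGN-like cells all 3 were in E15.5 replicate 2: Sox10 (9.9728 CPM, next 3.77 CPM), Tfap2a (1.6199 CPM, next 0.355 CPM) and Tfap2b (0.86059 CPM, next 0.247 CPM). The glia markers summed to 175 CPM in the SGN-like cells of that plate and to 32.3 to 62.5 CPM in those of the other 5 plates, and their part in these values was not tested. In OM-like cells they were Pou3f1 at E16.5 replicate 3 (3.9497 CPM, next 1.14 CPM) and Tfap2a at E15.5 replicate 2 (0.10641 CPM, a single count, with 0 in the other 5 plates).

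The stage difference of Zeb2 in glia and in neurons differed by test of the interaction, with a log2 value of 3.5069 (edgeR adjusted p = 0.00186). In the SS2_20 plates Zeb2 was higher at E16.5 and E17.5 than at E14.5 in glia in all 4 pairs of plates and lower in SGN-like cells in all 4. The 2 other E16.5 plates, with 17 and 9 glia-like wells, held 243 and 189 CPM in glia, below both E14.5 plates (334 and 360.4 CPM). In SGN-like cells those 2 plates held 43.3 and 43.8 CPM, between the SS2_20 values at E14.5 and at E16.5.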

How the results depend on the processing

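Of the alternatives tried on the tests of single factors, 626 gave the same direction and side of the threshold, 4 (Tfap2b with DESeq2) had no adjusted p, 2 were stronger, 1 was weaker and 11 turned the direction, all 11 of them of differences that were not called. The counts of factors called were the same in 89 of 92 alternatives. Against OM the count was 5 in place of 4 with the plate as replicate block and without E16.5 replicate 3. The interaction count, 1 in the reported fit, ranged from 0 to 1 when each plate was left out and was 0 without E14.5 replicate 1, where Zeb2 stood at 3.31 (adjusted p = 0.0599). With the plate as replicate block the pairing changed 1 call, Tfap2b against OM (4.64, adjusted p = 0.0482), and no other of the 7 in either class comparison. Pou3f1 against OM was called without E16.5 replicate 3 (4.06).

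The 11 values that turned belong to 6 differences, none of them called, and the cause was not tested. Sox10 at E16.5 and E17.5 against E14.5 in glia (0.04 as reported) ranged from -0.0113 to 0.08 with a plate left out, was -0.75 with the glia-like sums of all plates, which adds the mixed E16.5 and E18.5 wells (Zeb2 0.08 in place of 0.68), and was -0.0103 per day as a linear trend. With a plate left out, Foxd3 at E15.5 against E14.5 ranged from -0.0013 to 0.31, and Tfap2a at E16.5 and E17.5 from -0.37 without E16.5 replicate 3, the plate of the well with most of its counts, to 2.86. In the interaction the ranges were -0.17 to 1.45 for Sox10, -2.08 (without E14.5 replicate 1) to 3.44 for Egr2 and -6.60 to 2.86 for Tfap2a, the last without E17.5 replicate 1, where its SGN-like counts at both stages are 0 and the value has no usable error. Tfap2a was at 2.26 there with the glial contamination genes kept in the clustering.

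The number of all genes called by stage in glia depended on the setting. At E15.5 against E14.5 it was 10 as reported, 155 with DESeq2, 20 with the cell filter of the study's Reporting Summary, 38 without cycling cells, 1 with glial sums alone, 6 with the contamination genes kept, 0 with all plates and 0 to 3 with a plate left out. That cell filter asks for more genes and a minimum of counts per well but allows a higher share of spike-in counts. At E16.5 and E17.5 the number of genes called was 21 as reported, 356 with DESeq2, 47 with no filter on low counts, 36 with the Reporting Summary cell filter, 79 without cycling cells, 62 with glial sums alone, 0 with all plates and 1 to 49 with a plate left out. The interaction called 162 genes as reported, 744 with DESeq2 and 45 to 158 with a plate left out. RLE factors moved the median of all genes from 0.11 to 0.03 against SGN and from 0.12 to 0.05 against OM and changed no call of the 7.

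The share of glia-like cells with a factor depended on depth and on the count required. With at least 5 counts after thinning it was 97.3% for Sox10, 92.5% for Zeb2, 72.4% for Foxd3, 12.3% for Tfap2a and 2.23% for Pou3f1. The melanocyte wells and the well with most Tfap2a were left out as alternatives chosen after seeing the data. There were 1 or 2 SS2_20 plates per stage, and those of E14.5 came from another Cre line by the methods. The SE of a stage difference of Sox10 was 0.81 in the fit of all classes and 0.09 with the glial sums alone. Tfap2b, with 120 counts in all glia, was limited by its depth.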
